A study of Mus musculus with 6 samples.

Results

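A panel of 8 miRNAs with known roles in blood vessels was followed in endothelial cells of the bone marrow: mmu-miR-126a-3p, mmu-miR-126a-5p, mmu-miR-218-5p, mmu-miR-210-3p, mmu-miR-132-3p, mmu-miR-10a-5p, mmu-miR-10b-5p and mmu-miR-31-5p, written here without the mouse prefix. They were picked by name from the 1881 mouse miRNAs on the array. CD31hiEmcnhi endothelial cells (type H ECs) and CD31loEmcnlo endothelial cells (type L ECs) had been sorted from the bone marrow of wild-type C57BL/6 mice aged 1 month, and RNA of each cell type was measured on 3 one-colour Agilent arrays. CD31 and endomucin (Emcn) are surface proteins of endothelial cells, and the vessels in bone that carry both at a high level are called type H. The labels give the mice as male and describe a culture step in endothelial growth medium after the sort, whereas the study's methods give female mice and mention no culture for the arrays. The labels call the 3 arrays of a cell type biological replicates and do not say how many mice gave each one.

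A miRNA pairs with messenger RNAs mainly through its seed, bases 2 to 8 from the 5′ end, and lowers the output of those messengers. MiR-126, encoded inside the endothelial gene Egfl7, is the best known miRNA of endothelial cells and strengthens VEGF signalling by restraining its inhibitors. MiR-218 lies inside the Slit genes, which encode guidance ligands of Robo receptors, and Robo receptors are among its targets. MiR-210 is induced by hypoxia, miR-132 is induced by angiogenic growth factors through CREB, miR-10a and miR-10b lie in the Hox clusters, and miR-31 has been linked to the migration of endothelial and lymphatic endothelial cells.

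The mature sequences are shown because the seed sets which members can share targets and the remaining bases set how the array tells them apart. They are RefSeq sequences on GRCm38.p6, written 5′ to 3′ with the seed in capitals, and 7 of the 8 members matched an entry. MiR-212-3p, the neighbour of miR-132-3p, is added because the results below set the pair side by side.
miR-126a-3p: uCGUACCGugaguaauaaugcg
miR-218-5p: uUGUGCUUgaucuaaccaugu
miR-210-3p: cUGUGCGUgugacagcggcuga
miR-132-3p: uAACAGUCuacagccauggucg
miR-212-3p: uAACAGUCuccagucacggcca
miR-10a-5p: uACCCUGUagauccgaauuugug
miR-10b-5p: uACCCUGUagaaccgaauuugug
miR-31-5p: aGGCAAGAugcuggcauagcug

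MiR-126a-3p lies at chr2:26591402-26591423 on the plus strand, within Egfl7. MiR-218-5p has 2 identical copies, at chr5:48223966-48223986 within Slit2 and at chr11:35616840-35616860 within Slit3, both on the plus strand, and the array cannot tell them apart. MiR-210-3p lies at chr7:141221407-141221428 on the minus strand with no other gene spanning its hairpin. MiR-132-3p, at chr11:75173723-75173744, and miR-212-3p, at chr11:75173443-75173464, lie on the plus strand with 203 bases between their hairpins. MiR-10a-5p lies at chr11:96317186-96317208 within Hoxb3 and miR-10b-5p at chr2:74726074-74726096 within Hoxd3 and Hoxd4, both on the plus strand. MiR-31-5p lies at chr4:88910614-88910635 on the minus strand, within the long non-coding RNA gene Gm49890.

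Among the 1608 miRNAs of the array with a RefSeq sequence, the seed of miR-132-3p is shared only by miR-212-3p, and miR-10a-5p and miR-10b-5p share theirs only with each other. The seed of miR-218-5p is shared by miR-7002-3p, which was detected on 0 arrays. Those of miR-126a-3p, miR-210-3p and miR-31-5p are shared by 0 others. Counted from 1 at the 5′ end, miR-10a-5p and miR-10b-5p differ by U12A, and miR-132-3p and miR-212-3p differ by A10C, C14U, U17C, U20C and G22A.

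Each member is read through 2 probes of different length with 15 spots each. The scanner software gives each probe a signal and an error, and on every array a miRNA was flagged as detected exactly where at least 1 of its probes exceeded 3 times its error. The signal of a miRNA is here the sum over its probes, in the scanner's arbitrary units, and it is not comparable between miRNAs. An array of type H ECs had 263 to 281 detected miRNAs and one of type L ECs 295 to 309, and 231 miRNAs (12.3%) were detected on all 6. Each cell type occupied a slide and scan of its own, so an effect of the slide cannot be told apart from one of the cell type. The slide with the type H arrays gave the brighter reading for 10 of 10 control features, with log2 differences of 0.21 to 1.47. These control readings are totals as deposited and were not summed again from their own probes.

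Of the 8 members, 4 were detected on any array. MiR-210-3p, miR-31-5p and miR-218-5p were detected on all 6 arrays. MiR-132-3p was detected on the 3 type H arrays and on 0 of the type L arrays, a pattern shown by 19 of the 1881 miRNAs (1.01%). MiR-126a-3p, miR-126a-5p, miR-10a-5p and miR-10b-5p were detected on 0 arrays. Because neither strand of miR-126a, the endothelial marker, was detected, the panel is not called endothelial and its members are called by their own names. The sorted cells keep the study's names, type H and type L ECs. What lies behind the missing marker was not tested.

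**Figure D1:**
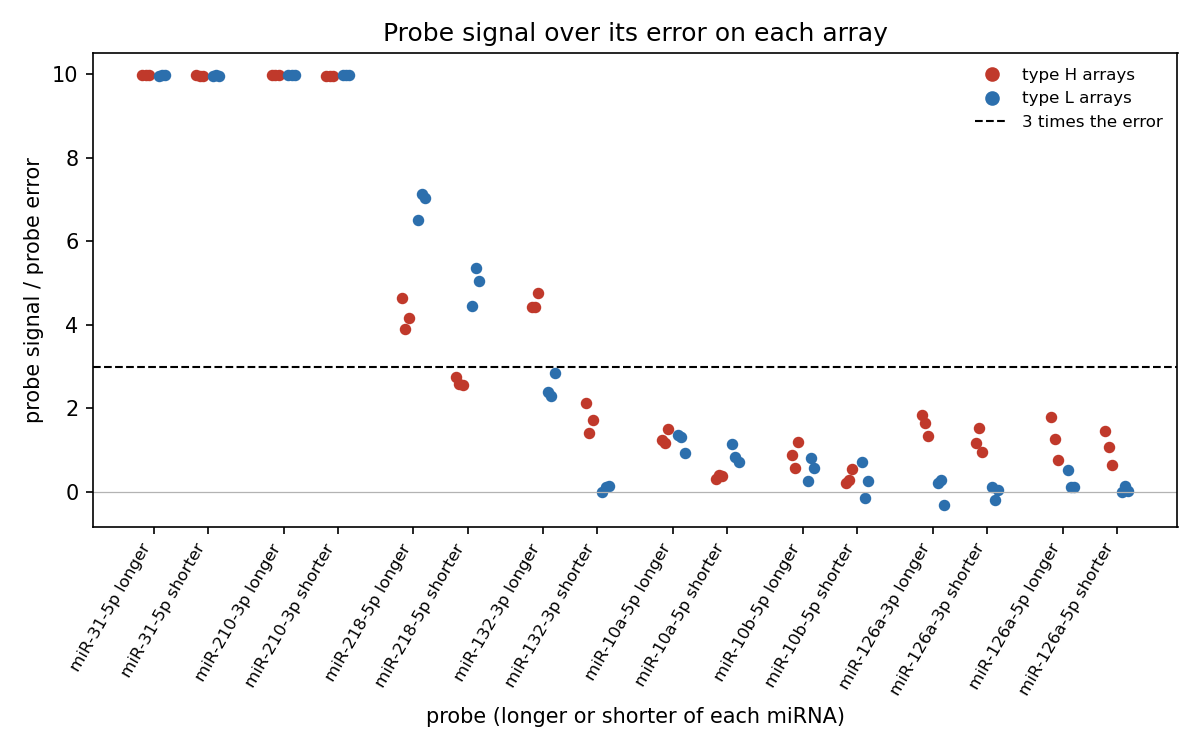
Signal of each probe divided by its own error, for the longer and shorter probe of each member on the 3 type H arrays (red) and the 3 type L arrays (blue). The dashed line marks 3 times the error, above which a miRNA counts as detected, and every point of miR-126a-3p, miR-126a-5p, miR-10a-5p and miR-10b-5p lies below it.

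Other markers bear on what the sorted cells held. All 7 haematopoietic marker miRNAs on the array, among them miR-142 and miR-223, were detected on 0 arrays, with a summed signal of 6.28 to 9.18 on the type H arrays and 1.42 to 2.68 on the type L arrays. All 5 epithelial markers were detected on 0 arrays. Of 8 mesenchymal and mural markers, miRNAs abundant in fibroblasts, smooth muscle cells and pericytes, 6 were detected on all 6 arrays and 1 on none, with a summed signal of 824 to 1053 in type H ECs and 711 to 816 in type L ECs. Of these, 7 were tested and 4 were higher in type H ECs, among them miR-145a-5p, not detected on type L array 1, by 1.21 on the log2 scale and miR-214-3p by 0.64 (limma with Benjamini-Hochberg adjustment, adjusted p = 4.6e-06 and 2.2e-05). MiR-145a-5p, detected on 3 type H and 2 type L arrays, entered the test through its type H arrays alone. The filter favoured this direction, so its p-value is no independent support for it. Over all miRNAs tested 44.7% were higher in type H ECs and 86.8% passed in either direction, so a count of 4 of 7 does not set these markers apart. The part of such cells in the results below was not tested, and a change in the share of a cell type cannot be told apart from a change in RNA per cell.

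The pair from the Mir126a hairpin gave little signal. MiR-126a-3p had signals of 2.28, 2.30 and 1.55 on the type H arrays and 0.26, 0.05 and −0.20 on the type L arrays. All 3 values of type H ECs were above all 3 of type L ECs, yet none of the probes exceeded its error enough to count, the highest ratio being 1.84. MiR-126a-5p had signals of 2.46, 1.69 and 0.95 in type H ECs and 0.40, 0.18 and 0.11 in type L ECs, again without overlap, and its highest ratio was 1.78. The median signal of all miRNAs not detected on an array was also higher on the type H slide, at 0.0094, −0.12 and −0.17 against −0.25, −0.31 and −0.28. No fold is given and no test is relied on for either strand of miR-126a, because both groups were below detection.

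The Hox-cluster pair was below detection in the same way. MiR-10a-5p had signals of 1.16, 1.13 and 1.28 in type H ECs and 1.98, 1.45 and 1.23 in type L ECs, which overlap. MiR-10b-5p had signals of 0.82, 0.61 and 1.18 in type H ECs and 0.77, 0.44 and 0.62 in type L ECs, which overlap as well. The longer probe of miR-10a-5p, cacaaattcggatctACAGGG, and that of miR-10b-5p, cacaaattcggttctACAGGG, each pair with 6 bases of the seed, shown in capitals. Their ratios to their own error reached at most 1.51 and 1.19. Over the 4 members not detected, 0 of 48 probe readings exceeded 3 times the error. Of 7 other miRNAs of the Hox clusters on the array, miR-196b-5p alone was detected on any array.

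For the comparison of cell types, signals were quantile-normalized across the arrays, raised to at least 1 and put on the log2 scale. The 311 miRNAs (16.5% of those on the array) detected on every array of type H ECs, of type L ECs or of both were tested with limma and Benjamini-Hochberg adjustment. Of all tested miRNAs, 86.8% passed an adjusted p of 0.05 (44.7% higher and 42.1% lower in type H ECs), and in 87.8% the arrays of the cell types did not overlap. Of the members, 4 were tested and 3 passed: miR-132-3p was higher in type H ECs, miR-218-5p and miR-210-3p were lower, and miR-31-5p did not pass. The count of 3 of 4 is near that background, and miR-132-3p met the filter through its type H arrays alone. The median log2 difference (type H minus type L) was −0.31 over these 4 members and 0.026 over all miRNAs tested.

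**Figure D2:**
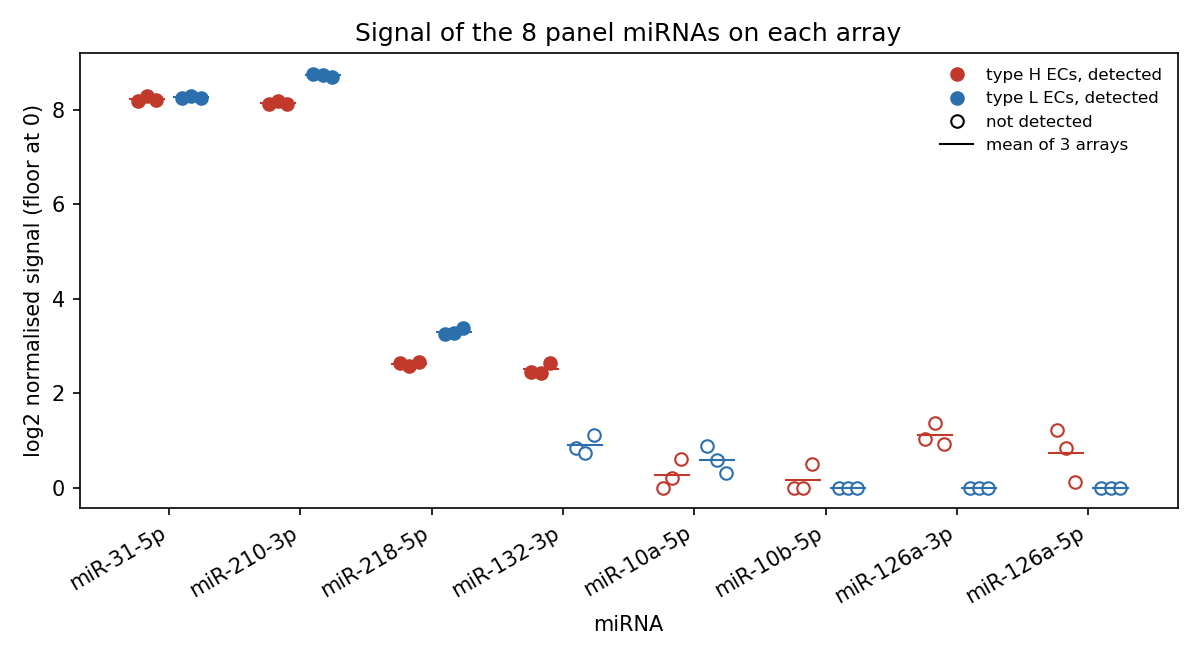
Log2 normalized signal (y axis, floor at 0) of each member on each array, in type H ECs (red) and type L ECs (blue), with filled points where the miRNA was detected, open points where it was not, and a line at the mean of 3 arrays. Heights of different miRNAs are not comparable, and within a miRNA the 3 type L points of miR-210-3p and miR-218-5p lie above the type H points while those of miR-132-3p are open and lie below.

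MiR-132-3p was the member that was higher in type H ECs. Its signals were 5.31, 4.60 and 4.82 on the type H arrays and 1.94, 1.66 and 2.32 on the type L arrays, so the cell types did not overlap. After normalization its log2 values were 2.44, 2.44 and 2.65 in type H ECs and 0.85, 0.74 and 1.11 in type L ECs. The means were 2.51 ± 0.12 and 0.90 ± 0.19 (SD, n = 3 each). On this normalized signal miR-132-3p was measured as 3.05-fold higher in type H ECs (limma with Benjamini-Hochberg adjustment, adjusted p = 4.4e-05). It entered the test through its type H arrays alone, so the filter favoured this direction and the p-value is no independent support for it. Its type L values, though not detected, lay above the lowest detected signal of their arrays. The 3.05 is the ratio of the measured means and not a lower bound. Over arrays alone the exact two-sided permutation p was 0.1, the smallest that 3 against 3 arrays allow.

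The signal of miR-132-3p was close to the detection limit. Its longer probe, cgaccatggctgtaGA, pairs with positions 7 to 22 and so with 2 bases of the seed, in capitals. That probe stood at 4.43 to 4.75 times its error in type H ECs and 2.30 to 2.84 times in type L ECs. The shorter probe stayed under 3 times its error on every array. Of its spots, 20.0, 23.3 and 43.3% were well above background on the type H arrays and 0, 3.33 and 0% on the type L arrays. The size of the difference depended on the signal. It was 2.51-fold without normalization and 1.92-fold for the longer probe alone before normalization. On the log2 scale it was 1.61 as reported, 1.61 with the mean processed signal and 0.15 with normexp background correction. It was 2.25 with probes above 3 times their error, 2.42 with the totals as deposited and 5.51 in the authors' log2 table. The 3.05-fold value is therefore one of several sizes.

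MiR-212-3p, encoded beside miR-132-3p and carrying the same seed, went the other way. Its signals were 69.4, 61.8 and 57.4 in type H ECs and 115, 112 and 116 in type L ECs, so every type L array was higher. The normalized log2 difference was −0.88 (SE 0.050, limma with Benjamini-Hochberg adjustment, adjusted p = 2.0e-05). On the measured values, of which those of miR-132-3p in type L ECs were below detection, the differences of the 2 neighbours were 2.49 apart on the log2 scale, and 2.20 apart without normalization. This pair was chosen for its difference after the values were seen, so the separation is a description with no test.

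MiR-218-5p, the miRNA of the Slit genes, was lower in type H ECs. Its signals were 6.05, 4.99 and 4.89 on the type H arrays and 10.6, 11.1 and 11.9 on the type L arrays. The type L arrays were all higher, without overlap. The normalized log2 means were 2.63 ± 0.040 in type H ECs and 3.30 ± 0.067 in type L ECs (SD, n = 3 each). The difference was −0.68 (SE 0.045, 95% interval −0.79 to −0.57), which is 1.60-fold higher in type L ECs (limma with Benjamini-Hochberg adjustment, adjusted p = 3.5e-05). The exact permutation p over arrays was 0.1.

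Both probes of miR-218-5p gave a difference of like size. The longer, acatggttagatcAAGCACA, covers positions 2 to 21 and all 7 bases of the seed, and the shorter lacks 1 of them. Before normalization the longer probe was 2.10-fold and the shorter 2.14-fold higher in type L ECs. The shorter probe exceeded 3 times its error on 3 of 3 type L arrays and 0 of 3 type H arrays. The share of spots well above background was 33.3, 20.0 and 20.0% in type H ECs and 76.7, 93.3 and 86.7% in type L ECs. The deposited total for this miRNA turned the direction round. It read 218, 190 and 182 on the type H arrays, where it included the total of a neighbouring miRNA in the name order, and 10.6, 11.1 and 11.9 on the type L arrays, where it did not, and fitted as deposited the log2 difference became 4.32 (limma with Benjamini-Hochberg adjustment, adjusted p = 1.3e-06).

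MiR-210-3p, the miRNA induced by hypoxia, was also lower in type H ECs. Its signals were 314, 260 and 255 on the type H arrays and 413, 440 and 434 on the type L arrays, with no overlap. The normalized log2 values were 8.12, 8.18 and 8.12 in type H ECs and 8.77, 8.74 and 8.69 in type L ECs. The difference was −0.59 (SE 0.034, 95% interval −0.68 to −0.50), or 1.50-fold higher in type L ECs (limma with Benjamini-Hochberg adjustment, adjusted p = 2.2e-05). Its longer probe, tcagccgctgtcacAC, was 1.49-fold and its shorter probe 1.69-fold higher in type L ECs before normalization. The difference lay between −0.74 and −0.53 under all 18 alternatives tried and passed the threshold in each. The differences of miR-218-5p and miR-210-3p were 0.088 apart after normalization and 0.44 apart without it. This pair was chosen after the values were seen, so the separation is a description only.

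MiR-31-5p was strongly detected in both cell types and its difference did not pass the threshold. Its signals were 326, 273 and 264 in type H ECs and 298, 312 and 334 in type L ECs, which overlap. The normalized log2 means were 8.23 ± 0.056 and 8.26 ± 0.025 (SD, n = 3 each), a difference of −0.033 with a 95% interval of −0.13 to 0.062 (limma with Benjamini-Hochberg adjustment, adjusted p = 0.45). The interval does not reach the size seen for miR-210-3p. The call depended on the scaling: after division by the 75th percentile of each array the difference was −0.23 (limma with Benjamini-Hochberg adjustment, adjusted p = 0.0038).

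MiR-31-3p, the other strand of the same hairpin, had signals of 40.3, 33.1 and 32.6 in type H ECs and 37.3, 39.8 and 41.2 in type L ECs, which overlap before normalization. Its normalized difference was 0.092 (limma with Benjamini-Hochberg adjustment, adjusted p = 0.048). Its direction turned under other scalings, to −0.26 after the 75th percentile and −0.16 without normalization, and the call was lost in 5 of the 6 fits that left out 1 array. The differences of the 2 strands of Mir31 were −0.13 apart after normalization and 0.027 apart without it. This pair too was chosen with the values in view, so the values are a description only.

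**Figure D3:**
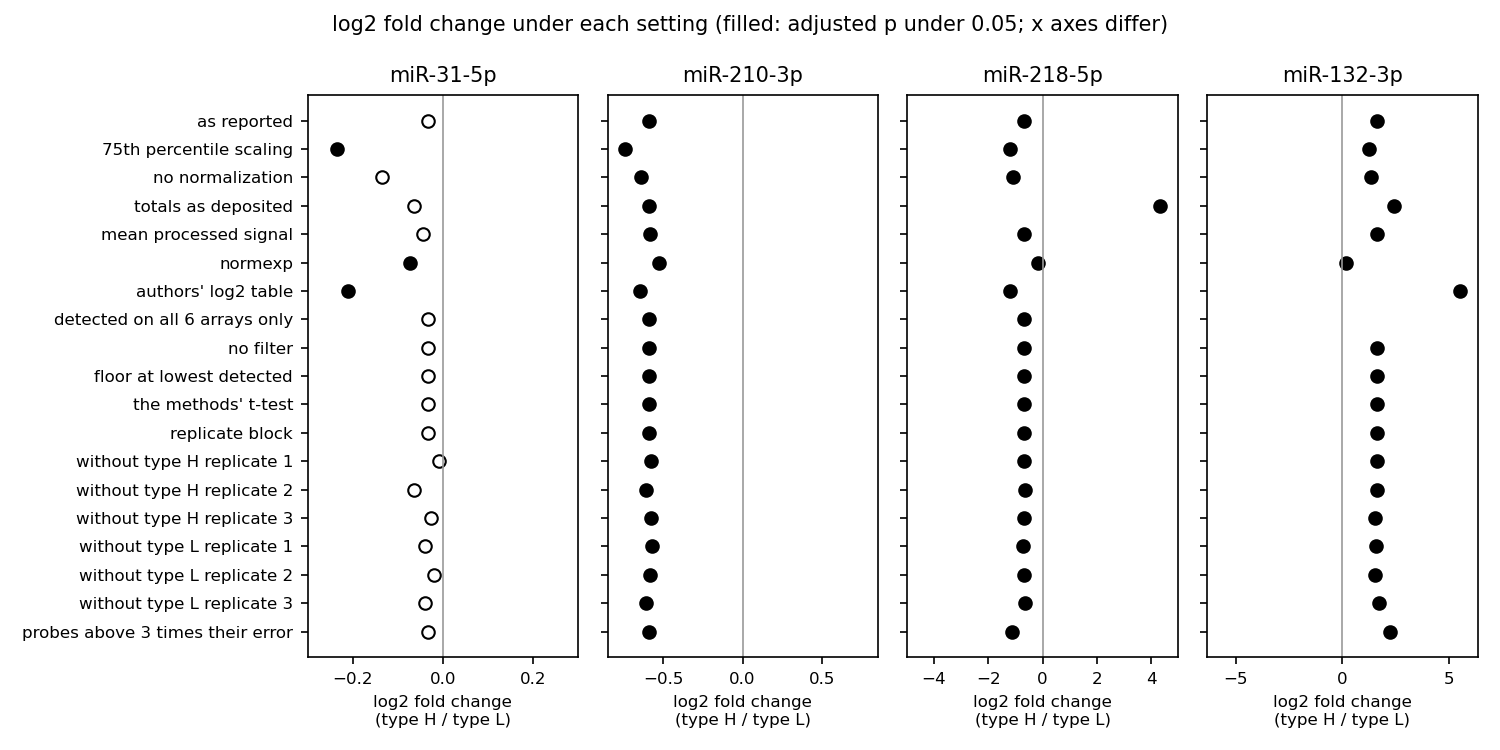
Log2 fold change, type H over type L, of the 4 tested members (x axis, which differs between panels) under each processing setting (y axis), with filled points where the adjusted p was under 0.05. MiR-210-3p keeps its side under each setting, miR-218-5p changes side with the totals as deposited, miR-132-3p ranges from 0.15 to 5.51, and miR-31-5p passes under 3 settings.

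Of 11 miRNAs from the same precursors or with the same family seed as a member, miR-212-3p and miR-31-3p were the 2 detected on any array. The detected Hox-cluster relative, miR-196b-5p, had signals of 15.4, 12.9 and 12.2 in type H ECs and 9.03, 8.75 and 8.59 in type L ECs. It was 0.96 higher on the log2 scale in type H ECs (limma with Benjamini-Hochberg adjustment, adjusted p = 9.0e-06). That difference was 0.51 after 75th percentile scaling and 0.24 with normexp.

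Another 29 miRNAs linked to angiogenesis were listed for comparison, of which 24 were detected on any array and 23 were tested. In type H ECs 16 were higher, 3 were lower and 4 did not pass, with a median log2 difference of 0.41 beside 0.026 for all miRNAs tested. Over all 311 miRNAs tested, 44.7% were higher, 42.1% were lower and 86.8% passed in either direction. After 75th percentile scaling the counts were 14 higher, 6 lower and 3 not past the threshold, and without normalization 14 higher, 3 lower and 6 not past. Over all 311 miRNAs, 98 were higher and 176 lower after 75th percentile scaling, and 95 higher and 141 lower without normalization. The list was chosen with earlier results of these data known and was not tested as a set. Its counts and median are therefore a description only. The 4 largest differences of the list were in the polycistron of miR-17, which promotes proliferation: miR-18a-5p was higher by 2.28, miR-19a-3p by 2.24, miR-20a-5p by 1.29 and miR-92a-3p, which restrains vessel growth, 2.15-fold. MiR-17-5p itself was detected on 1 type H array only and was not tested.

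The miR-23, miR-24 and miR-27 family, which acts on VEGF signalling and sprouting, did not move as 1 group. MiR-27a-3p was higher in type H ECs by 0.78, miR-23a-3p by 0.52, miR-24-3p by 0.49 and miR-27b-3p by 0.41, whereas miR-23b-3p was lower by a log2 difference of −0.28. MiR-27b-3p (0.022) and let-7f-5p (0.042), given next, did not pass after 75th percentile scaling. Of the pair that restrains c-Kit, miR-221-3p was 0.73 higher and miR-222-3p had a difference of −0.35. MiR-100-5p, which restrains mTOR, had a difference of −0.15. Without normalization miR-100-5p (−0.12), miR-27b-3p (0.12) and let-7f-5p (0.14) did not pass (limma with Benjamini-Hochberg adjustment, adjusted p = 0.43, 0.42 and 0.35).

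The other listed miRNAs that were higher in type H ECs were miR-29b-3p by 0.54, miR-93-5p and miR-130a-3p each by 0.51, miR-322-5p by 0.37, miR-107-3p by 0.35, miR-296-5p by 0.25 and let-7f-5p by 0.23. MiR-296-5p turned to −0.17 after 75th percentile scaling. MiR-503-5p (0.095), miR-101a-3p (0.014) and miR-34a-5p (−0.035) did not pass. Each passed in the opposite direction under another setting (limma with Benjamini-Hochberg adjustment): miR-503-5p at −0.34 (adjusted p = 0.0019) and miR-101a-3p at −0.52 (adjusted p = 7.4e-05) after 75th percentile scaling, and miR-34a-5p at 0.16 (adjusted p = 0.0027) with normexp. MiR-21a-5p held the same rank on all 6 arrays, so quantile normalization sets its difference to 0, and without normalization it was 0.37 higher in type H ECs (limma with Benjamini-Hochberg adjustment, adjusted p = 0.012).

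**Figure D4:**
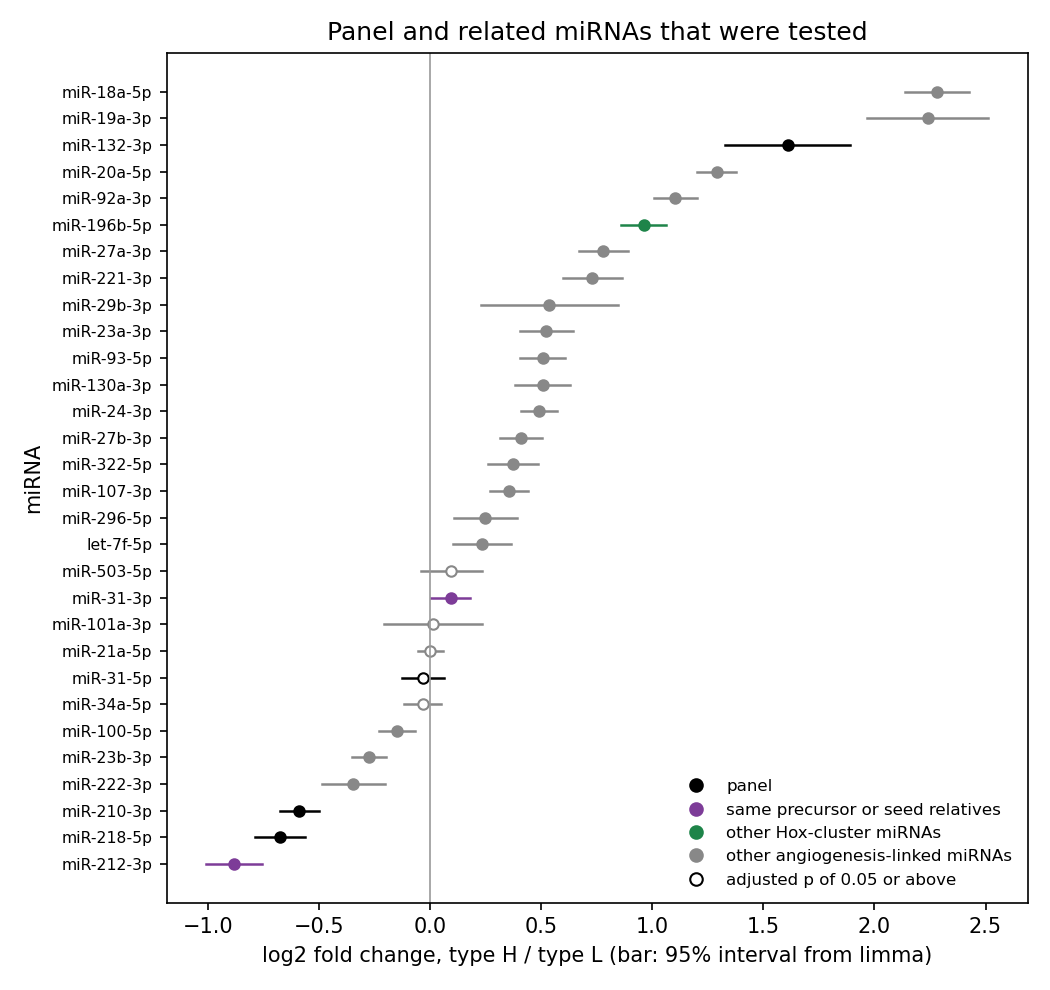
Log2 fold change, type H over type L (x axis), with the 95% interval from limma for the tested members and related miRNAs (y axis), and open points where the adjusted p was 0.05 or above. MiR-132-3p lies at 1.61 among the miRNAs that were higher in type H ECs, and miR-212-3p, miR-218-5p and miR-210-3p take the lowest places.

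The miRNAs whose pattern over the 6 arrays was nearest to a member were found by the Euclidean distance between centred log2 values, among 230 others detected on every array. Nearest to miR-218-5p were miR-1982-5p (distance 0.12) and miR-6987-5p (0.13). Nearest to miR-210-3p were miR-7047-3p (0.092) and miR-6908-5p (0.10). Nearest to miR-31-5p were miR-3968 (0.057) and miR-7002-5p (0.076).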

How the data were processed

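The members and lists were chosen with earlier results of these data known. Per the labels and methods, the authors scanned 1-colour miRNA arrays and deposited background-subtracted intensity values from Feature Extraction 10.7.1.1, with detection flags and other probe columns, and a log2 table that their methods call quantile-normalized. The labels describe cRNA labelling, the methods Cy3-labelled small RNAs, and the array design numbers differ. Deposited totals of 65 to 85 miRNAs per array also held another miRNA's total (relative tolerance 0.001), so each miRNA's own probes were summed. Signals were quantile-normalized on the linear scale, floored at 1, log2-transformed and compared with limma 3.58.1 (lmFit, eBayes) in R 4.3.3, with Benjamini-Hochberg adjustment over 311 miRNAs. A bound was tried that takes, per array, the higher of the lowest detected signal and the miRNA's own. For miR-132-3p it returned the measured type L mean, so no lower bound is given. The text names all members, listed relatives detected on any array, and the 2 nearest patterns of each member detected on all 6 arrays. The test was tried on simulated data. The p-values measure the spread between these arrays, whose number limits the precision. Probe coordinates of the files were not used here. Alternatives covered scaling, signal, background correction, filter, floor, test, the replicate number and each array left out.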

Additional observations from a re-analysis of the deposited data

How the results depend on the processing

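MiR-218-5p, miR-210-3p and miR-132-3p passed the threshold under every alternative that gave them a value, and miR-218-5p changed direction in 1, to 4.32 with the totals as deposited (limma with Benjamini-Hochberg adjustment, adjusted p = 1.3e-06). The size of miR-218-5p was −1.18 after 75th percentile scaling and −0.17 with normexp, and that of miR-132-3p was 0.15 with normexp, 2.42 with the totals as deposited and 5.51 in the authors' log2 table. MiR-31-5p passed the threshold after 75th percentile scaling (−0.23), with normexp (−0.072) and in the authors' log2 table (−0.21); the cause was not tested. Leaving out each array in turn gave −0.70 to −0.64 for miR-218-5p, −0.61 to −0.57 for miR-210-3p, 1.53 to 1.71 for miR-132-3p and −0.064 to −0.0083 for miR-31-5p, with 3 members and 260 to 266 of all miRNAs past the threshold. With no filter 413 miRNAs passed, among them the same 3 members and miR-126a-3p, which was detected on 0 arrays. That fit is one that limma reports as unreliable, so nothing is read from it for miR-126a-3p. Scaling moved the median log2 difference of the 231 miRNAs detected on all arrays from 0.11 to −0.22 (75th percentile) or −0.12 (no normalization), and the share of calls higher in type H ECs from 51.5% to 35.8% or 40.3%. When detection asked for 50% of spots well above background, 2 members rather than 3 were detected on all 6 arrays: miR-218-5p was then detected on type L arrays only and miR-132-3p on 0 arrays.

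Same-numbered arrays did not deviate together (correlations of −0.0055, −0.025 and 0.12). With each cell type on a slide of its own, this cannot settle whether the numbers pair the samples. With the replicate number as a block the differences were −0.68, −0.59, 1.61 and −0.033 for miR-218-5p, miR-210-3p, miR-132-3p and miR-31-5p, with the same 3 members and 262 of all miRNAs past the threshold. In that order their SEs were 0.041, 0.037, 0.047 and 0.035 with the block and 0.045, 0.034, 0.113 and 0.038 without it.

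Among the other named miRNAs, those that turned direction after 75th percentile scaling and without normalization were miR-101a-3p (−0.52 and −0.42), miR-503-5p (−0.34 and −0.24), miR-31-3p (−0.26 and −0.16), miR-296-5p (−0.17 and −0.071) and miR-34a-5p (0.076 and 0.18). With normexp, miR-101a-3p (−0.030), miR-503-5p (−0.033) and miR-34a-5p (0.16) turned. MiR-101a-3p also turned in the authors' table (−0.15) and with probes above 3 times their error (−0.15) (added after seeing the data) and ranged from −0.040 to 0.092 with 1 array left out. MiR-7002-5p turned in the authors' table (0.048) and with probes above 3 times their error (0.049), and ranged from −0.043 to 0.0035 with 1 array left out. MiR-7047-3p turned to 0.61 with the totals as deposited. MiR-31-3p ranged from 0.068 to 0.12 and kept its call only without type H replicate 2, and miR-503-5p passed without that array (0.14). The methods' t-test gave no value for miR-21a-5p, whose values do not vary, nor the all-array filter for miR-132-3p.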
